A study of Mus musculus with 6 samples.

Results

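The liver turns cholesterol into bile acids, and 10 enzymes and carriers of that pathway were followed here in primary mouse hepatocytes depleted of retinol saturase (RetSat). The 10 genes were Cyp7a1, Cyp7b1, Cyp8b1, Cyp27a1, Hsd3b7, Akr1d1, Amacr, Scp2, Slc27a5 and Baat. They were named by their role in the pathway, but with earlier results of these data known. Each is represented on the array by 1 probe set whose platform annotation names that gene alone, so 10 of 19938 measured genes were followed. The cells came from the liver of 1 wild-type male C57BL/6J mouse aged 10 weeks. Seeded in 25 mM glucose, they received 1 nmol of siRNA per well overnight with a lipid reagent, either control siRNA (siControl) or siRNA against RetSat (siRetSat). The medium was renewed the next morning, and total RNA was collected 48 h later. Each group held 3 independent transfections, each on its own array of the Affymetrix Mouse Gene 1.0 ST type. All values below are deposited, RMA-normalized intensities on the log2 scale, where a difference of 1 is a doubling, and they lie between 1.46 and 13.7 on these arrays.

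Bile acids are made by a classic route, which opens with hydroxylation of the sterol ring by CYP7A1, and by an alternative route, which opens with oxidation of the side chain by CYP27A1. The ring is then remodelled by HSD3B7, CYP8B1 and AKR1D1, the side chain is shortened in peroxisomes with the help of AMACR and SCP2, and the product is joined to taurine or glycine by SLC27A5 and BAAT. Bile acids restrain their own synthesis through the nuclear receptor FXR (Nr1h4) and its target SHP (Nr0b2), and through the receptor FGFR4 with its co-receptor beta-Klotho (Klb). Expression of Cyp7a1 is known to fall when hepatocytes are taken into culture.

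The siRNA lowered its target. Retsat had log2 values of 6.80, 7.04 and 7.01 in siControl and 4.62, 4.83 and 4.81 in siRetSat, a difference of -2.20 (standard error 0.105, adjusted p = 0.000112 from limma). The 3 transfections of a group share 1 mouse, so p-values measure the spread between transfections and not between mice. No other siRNA against RetSat was analysed here, so other effects of this siRNA cannot be told apart from RetSat loss. Arrays numbered 1 stood apart from the others of their group, on a first principal component that held 61.5% of the variance within groups. Arrays numbered 3 lay at its other end in both groups. Results that turn on arrays numbered 1 are given with and without them. The hepatocyte marker Alb (albumin) was bright, at 12.90 to 13.06 in siControl and 12.99 to 13.10 in siRetSat.

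Promoter sequences of 5 of the 10 genes were found in RefSeq's table for GRCm38.p6, running from 250 bases before to 50 bases after the start of transcription. Of these, 3 are shown, each 5′ to 3′ on the strand of the gene: Hsd3b7 and Akr1d1, the enzymes with such a sequence that differed most between the groups, in opposite directions, and Cyp8b1, whose values were the most scattered. Capitals mark matches, on either strand, to 5 short motifs. These are the E-box CACGTG found in carbohydrate response elements, the nuclear receptor half-site AGGTCA, the NR5A2 half-site CAAGGNCA, the HNF4A site AAAGTCCA and the TATA box TATAAA.
Hsd3b7 promoter, chr7:127800359-127800658, plus strand: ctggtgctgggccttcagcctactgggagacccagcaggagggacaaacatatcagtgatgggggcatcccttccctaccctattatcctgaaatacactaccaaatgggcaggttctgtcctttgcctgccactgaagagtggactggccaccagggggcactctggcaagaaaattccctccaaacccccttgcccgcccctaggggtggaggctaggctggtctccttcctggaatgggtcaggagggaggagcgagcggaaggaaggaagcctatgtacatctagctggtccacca
Akr1d1 promoter, chr6:37529923-37530222, plus strand: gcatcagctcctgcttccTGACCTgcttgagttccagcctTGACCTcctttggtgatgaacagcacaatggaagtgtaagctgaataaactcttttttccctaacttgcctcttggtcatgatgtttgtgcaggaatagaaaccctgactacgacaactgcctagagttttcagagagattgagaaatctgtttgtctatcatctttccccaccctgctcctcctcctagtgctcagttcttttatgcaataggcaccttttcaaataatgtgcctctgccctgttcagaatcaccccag
Cyp8b1 promoter, chr9:121916256-121916555, minus strand: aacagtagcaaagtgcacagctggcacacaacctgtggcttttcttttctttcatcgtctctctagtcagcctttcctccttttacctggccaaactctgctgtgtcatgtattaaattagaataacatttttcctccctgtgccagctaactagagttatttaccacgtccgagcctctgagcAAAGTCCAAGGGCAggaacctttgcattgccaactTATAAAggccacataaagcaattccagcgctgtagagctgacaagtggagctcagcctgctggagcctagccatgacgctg
The Hsd3b7 window held none of the 5 motifs. The Akr1d1 window held AGGTCA on the opposite strand at positions -232 and -210 from the start site, a motif present in 16.3% of 32851 promoters of the same length. The Cyp8b1 window held AAAGTCCA at position -66, found in 410 of the 32851 promoters, and CAAGGNCA at position -60, found in 6.71%, and these overlap. It also held TATAAA at position -31, as 13.6% of promoters did. CACGTG, found in 7.15% of promoters, was in none of the windows of the 5 genes, and Scp2 held AGGTCA once, at position -109, whereas Cyp27a1 held no match. A match is a description of letters in this window only.

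None of the 10 enzymes passed an adjusted p of 0.05 in the comparison of siRetSat with siControl by limma, a threshold that 1.91% of all genes passed as higher and 1.66% as lower. At an unadjusted p under 0.05 from limma, 3 were higher (Slc27a5, Hsd3b7 and Cyp27a1) and 2 lower (Akr1d1 and Scp2), against 6.98% of all genes higher and 7.52% lower. In these same 5 genes the siControl and siRetSat values did not overlap, as in 9.33% of all genes with siRetSat higher and 10.1% with siRetSat lower. With the study's fold cutoff, a log2 difference of at least 0.32 either way, added to the unadjusted p, 2 remained higher (Slc27a5 and Hsd3b7) and 1 lower (Akr1d1), against 4.47% and 4.58% of all genes. The methods' t-test gave none at an adjusted p under 0.05 and 4 at an unadjusted p under 0.05. With so small a share of all genes past its adjusted threshold, 0.983%, finding none among the enzymes says little. Its share of all genes at the unadjusted p is not given here, so the count of 4 cannot be set against one. Differences of the 10 ran from -0.40 to 0.45 with a median of 0.02, beside a median of 0.003 over all genes.

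**Figure D1:**
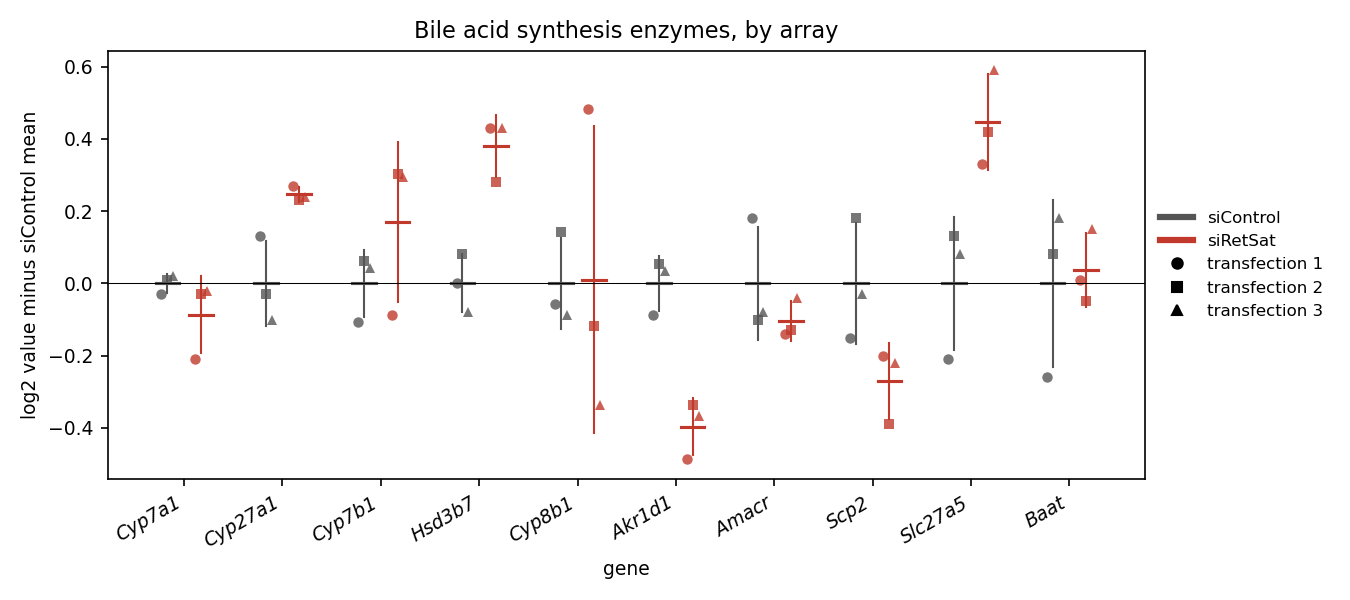
Log2 value of each array minus the siControl mean of that gene (y axis) for the 10 enzymes in pathway order (x axis), with siControl grey and siRetSat red. Symbols give the transfection number, bars the group mean and thin lines 1 SD up and down (n = 3). The groups stand clear of each other for Cyp27a1, Hsd3b7, Akr1d1, Scp2 and Slc27a5.

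Cyp7a1, the rate-limiting enzyme of the classic route, was dim on every array. It had log2 values of 2.66, 2.70 and 2.71 in siControl and 2.48, 2.66 and 2.67 in siRetSat. The siRetSat 1 value was below every siControl value, and the groups overlapped because siRetSat 2 and 3 reached the lowest control. The difference was -0.09 (95% interval -0.29 to 0.12, adjusted p = 0.807 from limma). Its mean level lay at percentile 5.17 of all genes, far below the 40th (a log2 value of 4.33) under which a gene is called dim here. Changes of transcripts so near background are understated. Its direction can therefore not be judged from these arrays.

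Both enzymes of the alternative route were bright. Cyp27a1, which oxidises the sterol side chain in mitochondria, had log2 values of 9.06, 8.90 and 8.83 in siControl and 9.20, 9.16 and 9.17 in siRetSat. All 3 siRetSat values lay above the highest siControl value, by 0.10 at the closest, and they spanned 0.04 where the siControl values spanned 0.23. The difference was 0.25 (standard error 0.0917, 95% interval 0.04 to 0.46, adjusted p = 0.252 from limma). Cyp7b1, which hydroxylates the oxysterols of that route, had values of 8.04, 8.21 and 8.19 in siControl and 8.06, 8.45 and 8.44 in siRetSat. Its siRetSat 1 value sat among the control values whereas siRetSat 2 and 3 lay above all of them. The difference was 0.17 (95% interval -0.12 to 0.46, adjusted p = 0.672 from limma). It was 0.30 (95% interval 0.07 to 0.52) without siRetSat 1 and 0.25 (95% interval 0.05 to 0.44) without both arrays numbered 1, with an adjusted p of 0.184 and 0.183 from limma.

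Of the enzymes that remodel the ring, none passed the test. Values of Hsd3b7 were higher and those of Akr1d1 lower without overlap, and those of Cyp8b1 were scattered. Hsd3b7, the dehydrogenase that both routes pass through, had values of 7.96, 8.04 and 7.88 in siControl and 8.39, 8.24 and 8.39 in siRetSat. The groups were 0.20 apart at their closest, more than the span of either group. The difference was 0.38, or 130% of the control signal (standard error 0.0913, 95% interval 0.17 to 0.59, adjusted p = 0.0683 from limma). Akr1d1, the reductase that sets the bent shape of the bile acid ring, had values of 4.08, 4.22 and 4.20 in siControl and 3.68, 3.83 and 3.80 in siRetSat. Every siRetSat value was below every siControl value, and the array numbered 1 was the lowest in each group. The difference was -0.40, or 76.0% of the control signal, with the smallest p of the 10 genes (standard error 0.0896, 95% interval -0.60 to -0.19, adjusted p = 0.0549 from limma). Both group means of Akr1d1, 4.17 and 3.77, were under the level of 4.33 that marks dim genes, so the size of its difference is uncertain.

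Cyp8b1, the hydroxylase required for cholic acid, was the most variable of the 10 in siRetSat. It had values of 4.37, 4.57 and 4.34 in siControl and 4.91, 4.31 and 4.09 in siRetSat. The siRetSat values spanned 0.82, with siRetSat 1 above and siRetSat 2 and 3 below every siControl value. The difference was 0.01 with all arrays (95% interval -0.44 to 0.46, adjusted p = 0.994 from limma), -0.023 with median centring of the arrays, and -0.23 without siRetSat 1. No direction can be given for it.

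**Figure D2:**
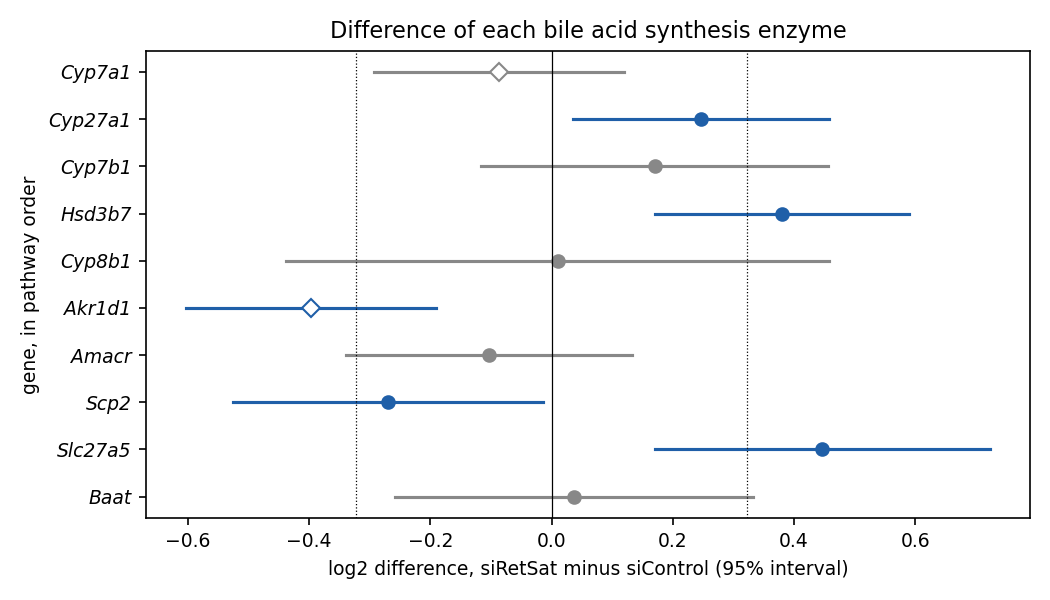
Log2 difference of siRetSat minus siControl (x axis) with its 95% interval from limma for each enzyme in pathway order (y axis), 3 arrays per group. Blue marks genes whose groups did not overlap, open diamonds the dim genes Cyp7a1 and Akr1d1, and dotted lines the study's fold cutoff at a log2 difference of 0.32 either way, which Hsd3b7 at 0.38, Akr1d1 at -0.40 and Slc27a5 at 0.45 lie beyond.

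Neither side-chain gene passed the test. Amacr, the racemase that lets the side chain enter peroxisomal breakdown, had values of 5.98, 5.70 and 5.72 in siControl and 5.66, 5.67 and 5.76 in siRetSat. The siControl 1 value was the highest and the groups overlapped. The difference was -0.10 (95% interval -0.34 to 0.13, adjusted p = 0.796 from limma). Scp2, which encodes the thiolase of that breakdown together with a sterol carrier, had values of 9.74, 10.07 and 9.86 in siControl and 9.69, 9.50 and 9.67 in siRetSat. All siRetSat values were below all siControl values, but by 0.05 only at the closest, between both arrays numbered 1. The difference was -0.27 (standard error 0.111, 95% interval -0.53 to -0.01, adjusted p = 0.312 from limma). It was -0.38 without both arrays numbered 1, but -0.12 without both numbered 2 and -0.18 without siControl 2.

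At the conjugation step neither gene passed the test, although the values of the ligase gene were higher without overlap. Slc27a5, which activates bile acids with coenzyme A, had values of 5.02, 5.36 and 5.31 in siControl and 5.56, 5.65 and 5.82 in siRetSat. The groups were 0.20 apart at their closest, and the lowest control was the array numbered 1. The difference of 0.45, or 136% of the control signal, was the largest of the 10 (standard error 0.120, 95% interval 0.17 to 0.72, adjusted p = 0.102 from limma). Baat, which transfers the bile acid to taurine or glycine, had values of 6.09, 6.43 and 6.53 in siControl and 6.36, 6.30 and 6.50 in siRetSat. The siRetSat values lay within the control range. The difference was 0.04 (95% interval -0.26 to 0.33, adjusted p = 0.964 from limma), and -0.08 without both arrays numbered 1.

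By the exact two-sided permutation test of a single gene, the 5 genes without overlap reached p = 0.1, the smallest value that 3 against 3 allow. The intervals bound what could have been missed in the measured signal of the genes without such separation that were not called dim. For Cyp7b1 they ran from 92.2% to 137% of the control signal, for Cyp8b1 from 73.8% to 137%, for Amacr from 79.0% to 110% and for Baat from 83.6% to 126%. A larger rise or fall of the measured signal than these lies outside the 95% interval. The group means of Cyp8b1, 4.43 in siControl and 4.44 in siRetSat, were close to the level that marks dim genes. Changes of its transcript may therefore be understated, and its interval is no bound on them.

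**Figure D3:**
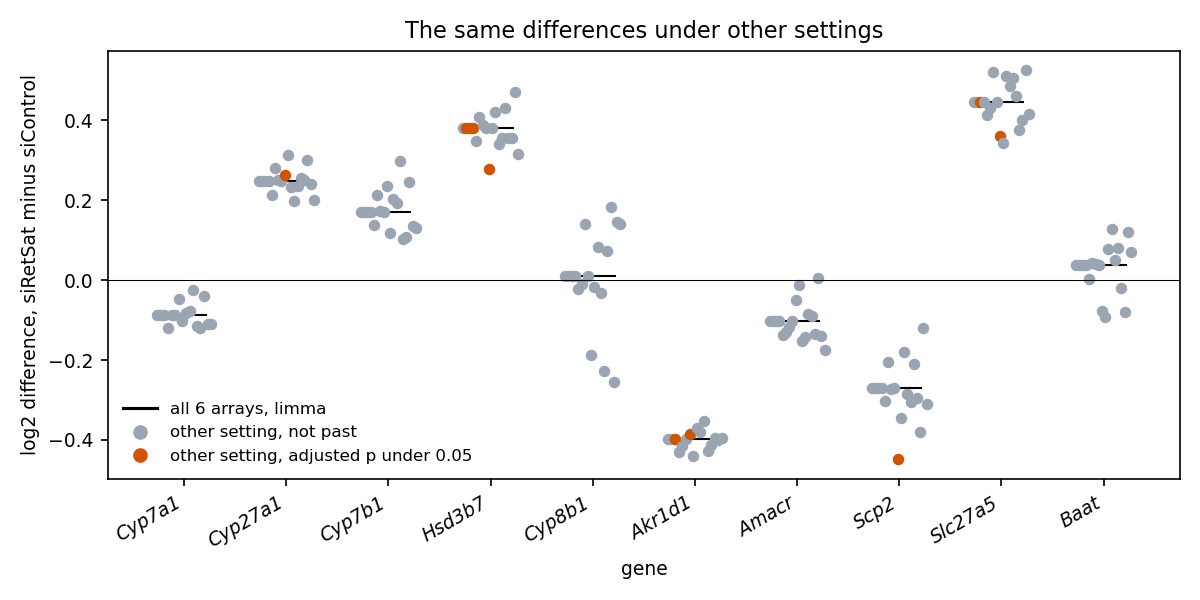
Log2 difference of siRetSat minus siControl (y axis) for each enzyme (x axis) in the limma fit of all 6 arrays (black bars) and under up to 18 other tests, normalizations, filters and array selections (points). Orange points passed an adjusted p of 0.05, which occurred for Cyp27a1, Hsd3b7, Akr1d1, Scp2 and Slc27a5, and the points of Cyp8b1 fall on both sides of 0, from -0.26 to 0.18.

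Other enzymes of bile acid synthesis and conjugation did not pass the test, with 16 of 16 measured, a median difference of 0.08, and 1 higher and 1 lower at an unadjusted p under 0.05 from limma. Slc27a2, a peroxisomal coenzyme A ligase related to Slc27a5, had values of 7.99, 8.36 and 8.16 in siControl and 7.57, 7.85 and 7.91 in siRetSat. These did not overlap, in the direction opposite to Slc27a5, and the difference was -0.39 (adjusted p = 0.189 from limma). Cyp2c70, which makes the muricholic acids of mice, differed by 0.24 (adjusted p = 0.450 from limma) with overlapping groups. Stard5, a sterol-binding protein, differed by 0.32 (adjusted p = 0.294) and Ch25h, which makes an oxysterol, by 0.30 (adjusted p = 0.408), both from limma. Both group means of Ch25h were dim.

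Among 19 measured regulators of the pathway 1 fell, none rose and 18 did not pass, with a median of -0.01. The one that fell was Fgfr4, the hepatocyte receptor for the gut hormone FGF15 that restrains Cyp7a1. It had values of 6.75, 7.01 and 6.83 in siControl and 6.22, 6.25 and 6.29 in siRetSat, so all siRetSat values were well below the control values. The difference was -0.61, or 65.5% of the control signal (standard error 0.0957, adjusted p = 0.0144 from limma). It passed in 3 of 6 fits that left out a single array, but not without siControl 2, siControl 3 or siRetSat 2. Its difference lay between -0.67 and -0.54 over these 6 fits. Nor did Fgfr4 pass by the methods' t-test with the adjustment added here (adjusted p = 0.0746). In limma it did not pass without both arrays numbered 2 (adjusted p = 0.377) or numbered 3 (adjusted p = 0.155). Klb, its co-receptor, had values of 4.28, 4.38 and 4.43 in siControl and 4.10, 4.21 and 4.06 in siRetSat, close to the dim level. These did not overlap either, at a difference of -0.24 (adjusted p = 0.254 from limma).

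The bile acid receptor gene Nr1h4 differed by -0.29 (95% interval -0.65 to 0.06, adjusted p = 0.463 from limma) and its target Nr0b2 by 0.09 (95% interval -0.22 to 0.40, adjusted p = 0.885). Both had overlapping groups. Prox1, a co-repressor in hepatocytes, was at 6.80, 7.08 and 6.89 in siControl and 6.18, 6.68 and 6.61 in siRetSat, a difference of -0.43 (adjusted p = 0.197 from limma). Nr5a2 and Hnf4a, whose motifs lie in the Cyp8b1 window shown above, differed by 0.01 and 0.10 (adjusted p = 0.994 and 0.730 from limma).

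Of 16 bile acid and sterol transporters, 3 rose, none fell and 13 did not pass, with a median of 0.03. The 3 were ATP-driven exporters of the bile canaliculus. Abcb1a, a multidrug exporter, had values of 4.77, 5.02 and 5.13 in siControl and 6.08, 6.41 and 6.37 in siRetSat, a rise of 1.31, or 249% of the control signal (standard error 0.130, adjusted p = 0.00207 from limma). It passed in all 6 fits that left out a single array. Abcb1a did not pass by the methods' t-test (adjusted p = 0.0618) or in limma without both arrays numbered 2 (adjusted p = 0.126). Abcc2, which exports conjugates of bilirubin and of some bile acids, had values of 10.26, 10.27 and 10.25 in siControl and 10.68, 10.87 and 10.77 in siRetSat. Its control values were almost equal and the rise was 0.51 (standard error 0.0869, adjusted p = 0.0195 from limma). Abcg2, an exporter of drugs and conjugates, had values of 8.40, 8.55 and 8.65 in siControl and 9.01, 9.09 and 9.23 in siRetSat, a rise of 0.58 (standard error 0.103, adjusted p = 0.0232 from limma). Abcc2 and Abcg2 each passed in only 1 of the 6 fits with an array omitted, namely when siRetSat 1 was omitted, although the differences stayed at 0.47 to 0.56 and 0.51 to 0.64. Neither passed by the methods' t-test (adjusted p = 0.0557 for Abcc2 and 0.112 for Abcg2), in limma with median centring (adjusted p = 0.0518 and 0.0661), or without both arrays numbered 2 or both numbered 3. With background subtraction Abcg2 did not pass in limma (adjusted p = 0.0801). The count of 3 transporters that rose thus became 0 by the methods' t-test and without both arrays numbered 2, and 1 with median centring, without both arrays numbered 3 and in 5 of the 6 single omissions.

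The main carriers of bile acids themselves did not pass. Abcb11, the bile salt export pump, differed by 0.06 (95% interval -0.24 to 0.36, adjusted p = 0.934 from limma). Slc10a1, the uptake carrier at the sinusoid, differed by -0.07 (95% interval -0.48 to 0.35, adjusted p = 0.953 from limma). Slco1a1, an organic anion uptake carrier, was dim at 3.55, 4.00 and 3.45 in siControl and 3.19, 3.24 and 3.24 in siRetSat, a difference of -0.44 (adjusted p = 0.174 from limma).

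**Figure D4:**
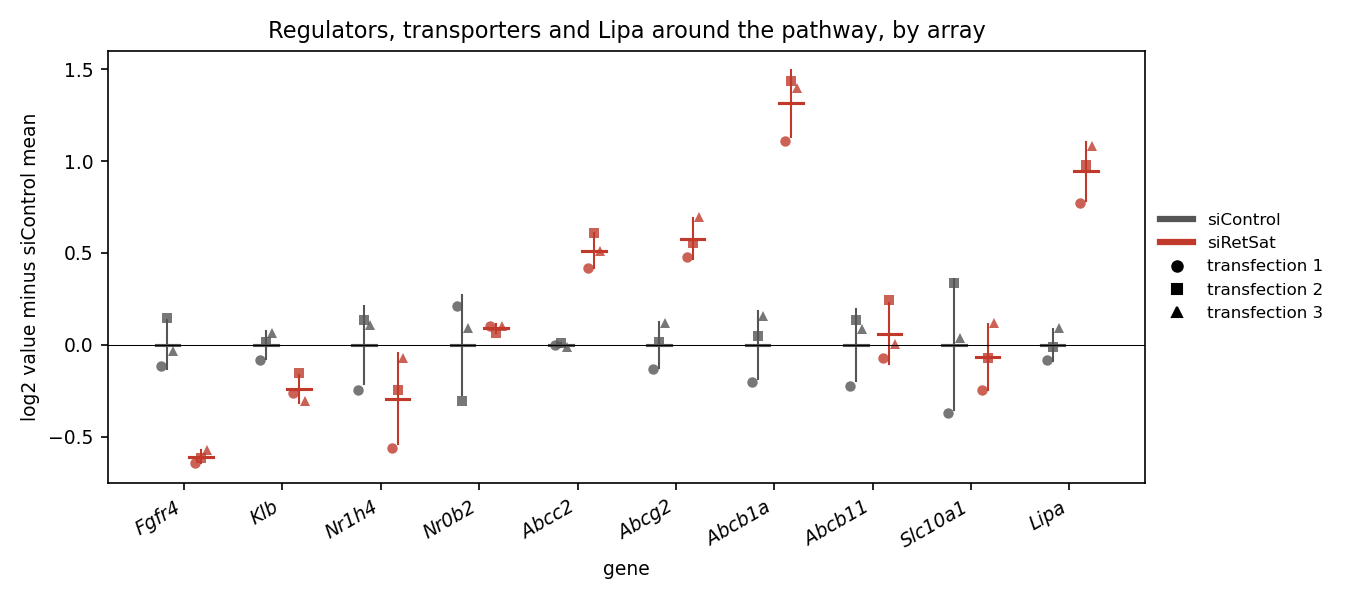
Log2 value of each array minus the siControl mean of that gene (y axis) for 4 regulators, 5 transporters and Lipa (x axis), with siControl grey and siRetSat red, symbols for the transfection number, bars for the mean and lines for 1 SD (n = 3). Fgfr4 at -0.61 lies below the controls and Abcc2, Abcg2, Abcb1a and Lipa lie above them, whereas Abcb11, Slc10a1 and Nr0b2 overlap.

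Of 13 measured genes of cholesterol supply 1 rose, none fell and 12 did not pass, with a median of -0.04. The one that rose was Lipa, the lysosomal acid lipase that frees cholesterol from cholesteryl esters. It had values of 9.06, 9.13 and 9.23 in siControl and 9.91, 10.12 and 10.22 in siRetSat, a rise of 0.94, or 192% of the control signal (standard error 0.107, adjusted p = 0.00349 from limma). It passed in all 6 fits that left out a single array. Lipa missed the threshold by the methods' t-test (adjusted p = 0.0585) and in limma without both arrays numbered 2 (adjusted p = 0.198). Lcat, which esterifies plasma cholesterol, differed by 0.27 (adjusted p = 0.323), Hmgcs1, of sterol synthesis, by -0.22 (adjusted p = 0.328) and Npc1, of lysosomal cholesterol export, by -0.21 (adjusted p = 0.294), each from limma with groups that did not overlap.

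General hepatocyte markers did not all move alike in the same samples. Differences were below 0 for 9 of those measured and above 0 for Alb (0.07) and Apoa1 (0.11), with a median of -0.17. Of 11 measured, 3 fell (Cps1 by 0.82, Tat by 0.72 and Fgb by 0.42), none rose and 8 did not pass, and the sum of their log2 values ran from 108.75 to 111.47 in siControl and from 106.39 to 107.37 in siRetSat. The count of 3 that fell became 0 without siControl 2 and without each of the 3 siRetSat arrays in turn. It was also 0 by the methods' t-test, with background subtraction, and without both arrays numbered 2 or both numbered 3. Without siControl 3 and with median centring it was 1. The sum over the 10 bile acid enzymes ran from 63.0 to 64.2 and from 63.8 to 64.3, which overlap. In bulk cells, fewer hepatocytes and less RNA per hepatocyte cannot be told apart. Of 12 macrophage markers 1 rose (Cd14 at 0.59) and 9 were dim, with sums of 54.5 to 55.9 in siControl and 55.4 to 57.1 in siRetSat. Of 7 bile duct markers 1 rose (Sox9 at 0.45), of 10 endothelial markers 1 rose (Flt4 at 0.55), and of 12 stellate and fibroblast markers 2 fell (Acta2 at -2.40 and Tagln at -1.46). Their sums ran from 33.4 to 34.1, from 49.9 to 51.1 and from 69.9 to 71.5 in siControl, and from 33.5 to 34.7, from 50.7 to 51.8 and from 66.3 to 71.0 in siRetSat. With single arrays left out in turn, no bile duct marker passed in 5 of 6 fits, no macrophage marker in 4 and no endothelial marker in 3, and none of these 3 lists had a call by the methods' t-test. With median centring the bile duct and endothelial calls were lost, and with background subtraction the bile duct and macrophage calls. All 3 lists lost their call without both arrays numbered 2 or both numbered 3, and the macrophage list also without both numbered 1. The count of 2 stellate and fibroblast markers that fell was again 2 in all 6 single omissions, and it was 1 by the methods' t-test, with background subtraction and without both arrays numbered 2 or both numbered 3. The part of these cells in the differences above was not tested.

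Genes whose values ran most like those of a bile acid enzyme over the 6 arrays were taken from genes that were not dim. For Akr1d1 they were Zmiz1, Mical2 and Pja2, with Pearson's r of 0.998, 0.998 and 0.997. Like Akr1d1, these genes were lower in every siRetSat array, at differences of -0.85, -0.72 and -0.39 (adjusted p = 0.00897, 0.0143 and 0.0544 from limma). They were picked for likeness to Akr1d1 over the same arrays, whose groups do not overlap. Their separation therefore follows from that choice, and their p-values are no further evidence. For Cyp7a1 they were Zfp266, Fbh1 and Rest, with r of 0.999, 0.999 and 0.998, and each shared with it a low siRetSat 1 array. These values describe 6 points that share the group difference and the standing of arrays numbered 1.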

How the data were processed

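The authors deposited normalized log2 intensities per probe set for 6 arrays, 3 siControl and 3 siRetSat. RMA and Partek 6.6 are named in the submitters' processing notes. RMA normalizes by quantiles, which hides a shift common to all genes. The sources used here name no build, annotation version or filter. For arrays, their number limits the precision. Array medians lie between 4.29 and 4.50. Of 35556 probe sets, 21789 carried 1 symbol in GEO's platform annotation. Symbols were updated by Entrez identifier through RefSeq's GRCm38.p6 table, and each of 19938 genes was read from its brightest probe set.

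The comparison used lmFit and eBayes of limma 3.58.1 (R 4.3.3) without covariates, across all genes, with Benjamini-Hochberg adjustment and a threshold of 0.05, after the fit was tested on simulated data. Genes with both group means under 4.33, the 40th percentile of gene means, were called dim. Exact permutation tests, tables and figures used Python 3.11.15, scipy 1.17.1, pandas 2.3.3 and matplotlib 3.10.9.

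The 10 enzymes and all gene lists were chosen with earlier results of these data known. Named genes were the 10 enzymes, Retsat, Cyp2c70, Nr1h4, Nr0b2, Fgfr4 and Klb, every gene past the threshold in the lists of other synthesis enzymes, regulators, transporters and cholesterol supply, with the smallest p up to 4 per list where fewer passed, and the 3 genes most correlated with Cyp7a1 and with the enzyme of smallest p. Abcb11, Slc10a1, Nr5a2, Hnf4a, the cell type markers and the neighbours of Lipa were named after their values were seen. Alternatives are given in the closing section. The study states no adjustment for its t-test, which it used with a fold cutoff. A gene that missed an adjusted p by that t-test may still meet the study's own cutoffs. The omission of both arrays numbered 2 or 3 was added after seeing the data.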

Additional observations from a re-analysis of the deposited data

How the results depend on the processing

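Of the 10 enzymes, none passed an adjusted p of 0.05 in the limma fit of all 6 arrays, with median centring, with quantile normalization again, with background subtraction, with the mean of probe sets, by the methods' t-test, or without any single array or any pair of arrays of the same number. With a variance trend 1 was higher (Hsd3b7, adjusted p = 0.0240), where 5.41% of all genes passed, and without dim genes 1 was higher (Hsd3b7, adjusted p = 0.0379), where 7.91% of the genes tested passed. With array weights 3 were higher (Cyp27a1, Hsd3b7 and Slc27a5, adjusted p = 0.0277, 0.0346 and 0.0194) and 2 lower (Akr1d1 and Scp2, adjusted p = 0.00463 and 0.00971), where 14.6% of all genes passed and siRetSat 2 had a weight of 3.90 against 0.317 for siRetSat 1. The cause was not tested.

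With the replicate block 2 were higher (Hsd3b7 and Slc27a5, adjusted p = 0.0435 and 0.0215) and 1 lower (Akr1d1, adjusted p = 0.0201), where 736 genes in all were higher and 805 lower, 7.73% of those tested. The numbers were not taken as pairing the samples in the main fit, since the methods state no pairing. Deviations of same-numbered arrays from their group means correlated at 0.547, 0.0398 and 0.541. On the first principal component of these deviations, arrays 1, 2 and 3 scored -19.05, 3.663 and 15.38 in siControl. In siRetSat they scored -23.61, 7.258 and 16.35, in the same order. Whether the numbers mark a shared effect was not tested.

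Cyp8b1 changed sign with median centring (-0.023), quantile normalization again (-0.0094), array weights (-0.19) and without both arrays numbered 1 (-0.26), and ran from -0.23 to 0.18 when single arrays were left out. Baat changed sign with array weights (-0.079) and without both arrays numbered 1 (-0.08), and ran from -0.093 to 0.13 over single omissions. Amacr was at 0.005 without both arrays numbered 1. The other 7 kept their sign wherever they gave a value, and Cyp7a1 and Akr1d1 gave none with background subtraction, where every array lay at the floor of 16.

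Of all genes, 380 were higher and 330 lower. These became 100 and 96 by the methods' t-test, 247 higher with median centring, 543 lower with a variance trend, 211 and 211 with background subtraction, 1457 and 1448 with array weights, 10 and 5 without both arrays numbered 2, and 71 and 40 without both numbered 3. Over single omissions the count ranged from 119 (without siControl 2) to 402 higher and from 88 (without siControl 2) to 248 lower. At the cutoffs of the study, the methods' t-test gave 718 genes higher and 707 lower against 892 and 913 by limma, and the same counts of 2 and 1 for the enzymes.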

Other observations

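Lipa, the gene of cholesterol supply that rose, lies in a stretch of chromosome 19 where several genes differed between the groups. The stretch was picked after its values were seen. Among the 12 protein-coding genes on each side of Lipa in RefSeq's order, 20 were measured, of which 6 rose and 2 fell at an adjusted p under 0.05 from limma, against 1.91% and 1.66% of all genes. On one side came Ifit2, Ifit3, Ifit3b and Ifit1, antiviral genes induced by interferon, at rises of 1.04, 4.06, 4.01 and 1.42. The siControl mean of Ifit3b, 3.84, was below the 4.33 that marks dim genes, which leaves the size of its difference unsure. The probes of the paralogs Ifit3 and Ifit3b may detect each other's transcripts. On the other side came Ch25h, at 0.30, then Fas, a death receptor, at 0.60 (adjusted p = 0.0908), Acta2, smooth muscle actin, at -2.40, and Stambpl1, a deubiquitinase, which rose by 0.57. Lipn, a lipase gene further out, had log2 values of 5.71, 6.11 and 5.96 in siControl and 7.82, 7.81 and 8.02 in siRetSat, a rise of 1.96, while its neighbours Lipk and Lipm were dim. Besides Acta2, the neighbour that fell was Ankrd1, the last of the 12 on the side of the Ifit genes, at -1.01 (adjusted p = 0.00297 from limma). Whether neighbouring position has a part in any of these differences was not tested.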
